A study of Homo sapiens with 22 samples.

Results

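Of the 35237 genes in the count table, 60 rose in SK-N-AS and fell in GIMEN over 30 days of treatment with PP121 and bufalin. They were chosen from the same data. Each gene's count was divided by the library total and given as counts per 1000000 (CPM), and group means were compared after adding 1 CPM. A gene was taken when its mean in treated SK-N-AS was at least 2 times that of untreated SK-N-AS and its mean in treated GIMEN was at most 0.5 times that of untreated GIMEN. In both lines every treated library also had to lie on its side of every untreated library. The 30-day changes of the 60 genes are therefore a description of how they were picked, and no test of those changes is given.

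SK-N-AS and GIMEN are long-established lines of neuroblastoma, a childhood tumour of the sympathetic lineage, and the labels class both as mesenchymal (MES). PP121 blocks both tyrosine kinases and phosphoinositide kinases, and bufalin is a cardiac glycoside that blocks the sodium pump. Untreated SK-N-AS grew in DMEM with 10% serum (n = 4). In stage 1, cells of this line received 5 µM PP121 in DMEM with 1% serum for 4 days (S1D4, n = 4). In stage 2 such cells then received 5 µM PP121 with 100 nM bufalin in Neurobasal with B27, a medium for neurons that holds no serum. This lasted 4 days for the S2D4 group (n = 4) and 30 days for the S2D30 group (n = 4). Untreated GIMEN grew in RPMI with 10% serum (n = 3), and treated GIMEN received 2.5 µM PP121 with 10 nM bufalin in RPMI with 1% serum for 30 days (D30, n = 3). The lines thus differed in dose, medium, serum and the stage 1 pretreatment, and the effects of these differences and of the line itself cannot be told apart. No group used here received vehicle, low serum or the neuronal medium alone.

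Many of the 60 genes act at the cell surface or outside the cell. CTGF and CYR61 encode secreted matricellular proteins and are classic targets of YAP and TAZ, coactivators that bind DNA through TEAD factors and respond to cell shape, adhesion and matrix stiffness. AXL is a receptor tyrosine kinase, SNAI2 is a repressor of epithelial genes, and FOSL1 is a subunit of the AP-1 transcription factor. These genes are commonly used as markers of a mesenchymal state, which in neuroblastoma lines is set against an adrenergic, sympathetic-like state.

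Library totals ran from 16456484 to 37506800 counts. The 34 genes of a mesenchymal-state list summed to 2340 to 2860 CPM in untreated SK-N-AS and 8560 to 8840 in untreated GIMEN. The 28 genes of an adrenergic list summed to 3160 to 3910 and 1130 to 1160 CPM, with 10 of the 28 at 0 in untreated GIMEN. One SK-N-AS library, S2D4 replicate 4, stood apart: its correlation with the other S2D4 libraries was 0.963 to 0.965, against 0.99 among the others. It was the lowest of its group for 35 of the 60 genes (58.3%) and the highest for 17, where the shares over 15232 genes with a group mean of at least 1 CPM were 48.1% and 33.4%. In untreated SK-N-AS, replicates 3 and 4 both lay below replicates 1 and 2 for 33 of the 60 genes (55.0%, against 15.1% of the 15232), CYR61 and AXL among them.

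The 60 genes were a small share of what moved. The SK-N-AS condition was met by 1899 genes (5.39% of the table) and the GIMEN condition by 1242 (3.52%), and both by 0.17%. The 60 made up 3.16% of the SK-N-AS risers and 4.83% of the GIMEN fallers. By contrast, 528 genes rose at least 2-fold in both lines, which was 27.8% of the SK-N-AS risers, and 701 fell in both. Among the 15232 genes with a group mean of at least 1 CPM, the GIMEN condition was met by 8.15% of all and by 3.16% of the SK-N-AS risers. The mirrored pattern, a fall in SK-N-AS and a rise in GIMEN, held for 78 genes.

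**Figure D1:**
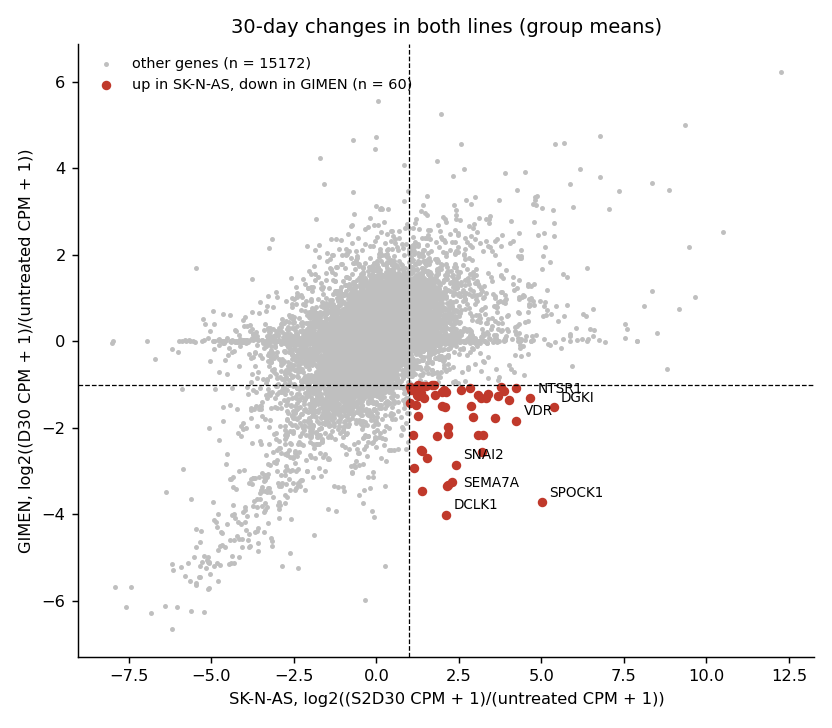
Log2 ratio of treated to untreated group mean (CPM + 1) after 30 days, SK-N-AS on the x axis and GIMEN on the y axis, for genes with a group mean of at least 1 CPM; dashed lines mark the 2-fold limits. The 60 chosen genes (red) fill the lower right corner, where DGKI has the largest SK-N-AS rise and DCLK1 the largest GIMEN fall; 528 genes rose and 701 fell at least 2-fold in both lines.

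The SK-N-AS ratio of the 60 genes ran from 2.03 to 41.5 with a median of 4.21, and the GIMEN fall ran from 2.02-fold to 16.2-fold with a median of 2.48-fold. Just inside the SK-N-AS limit were LACTB (2.03) and MAP3K14 (2.04), and just outside it GAS2L3 (1.99) and NEDD4 (1.98). At the GIMEN limit IL6 and SRPX had a ratio of 0.496, while CSF1R (0.507) and RUNX2 (0.509), a transcription factor of bone, fell outside. In 6 of the 60 genes no group mean reached 10 CPM, IL6, INHBB and C3AR1 among them, so their ratios rest on few counts and on the added 1 CPM.

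Promoters were available for 41 of the 60 genes, as the 250 bases before and 50 bases after the start of the gene in RefSeq (GRCh38.p14). The hexamer GGAATG, the core that TEAD factors recognise, was searched on both strands and occurred in 7 of the 41, against 14% of all 35116 promoters of that length and 10.7% of those of the SK-N-AS risers. The 7 were ARNTL2, CTGF, DCLK1, IRS1, MYPN, NTS and SLC26A4. The promoters of CTGF, IRS1 and NTS are printed because they differ in role and in spacing of the hexamer, which is in capitals. CTGF, a secreted protein and YAP target, lies on the minus strand (chr6:131951323-131951622) and holds the hexamer 3 times, starting at positions -169, -104 and -95 from the start. IRS1, an adaptor of the insulin receptor, lies on the minus strand (chr2:226799771-226800070) and holds it at -33. NTS, the precursor of the peptide neurotensin, lies on the plus strand (chr12:85874045-85874344) and holds it at -21.
CTGF: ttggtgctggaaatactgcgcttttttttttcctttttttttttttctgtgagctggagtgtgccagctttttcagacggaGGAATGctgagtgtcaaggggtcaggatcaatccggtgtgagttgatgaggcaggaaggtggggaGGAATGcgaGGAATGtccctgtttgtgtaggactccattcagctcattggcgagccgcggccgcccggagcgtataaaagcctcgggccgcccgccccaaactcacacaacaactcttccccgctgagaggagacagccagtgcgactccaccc
IRS1: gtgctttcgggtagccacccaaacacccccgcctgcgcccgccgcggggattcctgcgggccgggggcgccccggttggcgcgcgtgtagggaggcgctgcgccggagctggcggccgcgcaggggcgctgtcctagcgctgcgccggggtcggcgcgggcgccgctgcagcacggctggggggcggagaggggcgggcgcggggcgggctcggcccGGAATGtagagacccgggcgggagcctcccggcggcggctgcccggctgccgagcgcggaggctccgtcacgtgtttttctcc
NTS: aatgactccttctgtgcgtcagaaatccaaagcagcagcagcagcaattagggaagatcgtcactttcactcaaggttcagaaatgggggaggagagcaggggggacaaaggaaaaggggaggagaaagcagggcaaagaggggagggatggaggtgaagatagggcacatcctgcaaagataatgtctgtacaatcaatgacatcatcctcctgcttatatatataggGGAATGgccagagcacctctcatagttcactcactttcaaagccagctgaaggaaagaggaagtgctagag
A match describes these letters only and says nothing on whether a factor is bound. The AP-1 element TGANTCA occurred in 3 of the 41 promoters (7.32%, ARSJ, C3AR1 and DCLK1), against 7.71% of all, and the NF-kB pattern GGGNNNTCC in 13 (31.7%), against 21.0% of all and 25.6% of the SK-N-AS risers.

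The comparison that the choice of genes did not use was that of S2D4 with S1D4, which asks what 4 days of PP121 with bufalin in neuronal medium changed relative to stage 1. Of the 60 genes, 50 were higher in S2D4 (83.3%), where 28.3% of the 15810 genes tested were higher, and 1 was lower, where 26.8% were lower. Calls are those of edgeR's quasi-likelihood test with Benjamini-Hochberg adjustment over all genes tested and a threshold of 0.05. The median log2 change of the 60 was 1.94, against 0.02 for all genes. Genes that met the SK-N-AS condition also moved this way as a whole: of the 1897 risers tested, 68.3% were higher in S2D4 than in S1D4, with a median of 0.91. In 41 of the 60 every S2D4 library lay above every S1D4 library by CPM, against 16.4% of the 15232 expressed genes. Without S2D4 replicate 4 the test found 50 higher and 2 lower. NLRP10 had 0 counts in every S1D4 and S2D4 library, so no change could be found. IL6, SERPINB7 and INHBB had at most 2, 3 and 5 counts in any of these libraries. These genes remain in the counts and the median, among the 9 of the 60 without a call. Labels do not say whether replicates were separate cultures, so p-values measure the spread between these libraries, which may be technical.

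**Figure D2:**
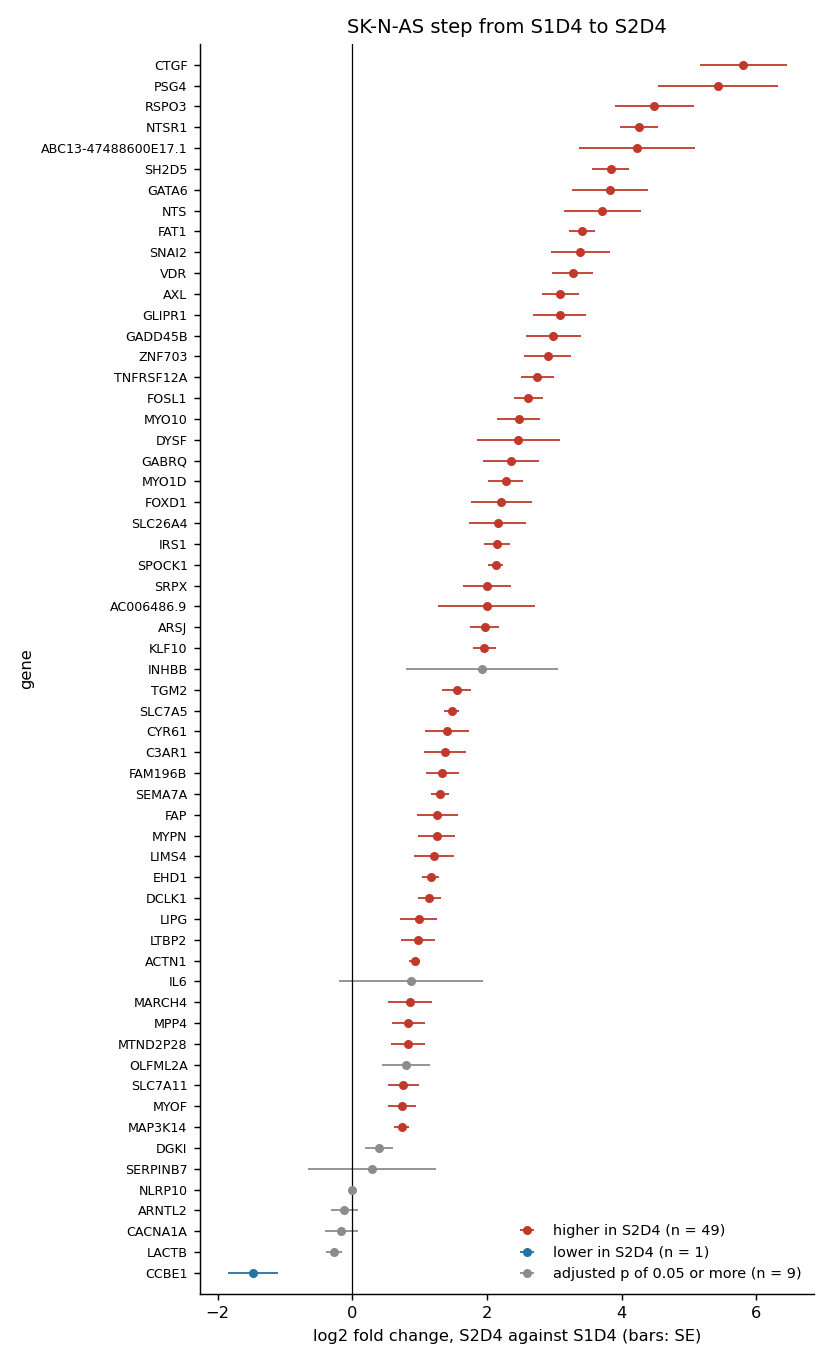
Log2 fold change from S1D4 to S2D4 in SK-N-AS for 59 of the 60 genes, with its standard error, from edgeR. The 49 of them called higher are red, CCBE1, the 1 called lower, is blue, and the 9 without a call are grey.

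The matrix and secreted genes numbered 14, of which 11 were higher in S2D4 than S1D4 and 1, CCBE1, was lower. Over all 60 genes the share higher was 83.3%, among the SK-N-AS risers 68.3% and among all genes tested 28.3%. These shares stand beside the counts of every role below, and no role was tested against them. CTGF measured 2.16, 1.90, 1.10 and 0.346 CPM in SK-N-AS before treatment, then 0.357, 0.0525, 0.0954 and 0.451 in S1D4. In S2D4 it measured 16.6, 13.3, 15.2 and 3.59 CPM and in S2D30 11.1, 7.82, 7.11 and 12.9. Every stage 2 library thus lay above every earlier one, with S2D4 replicate 4 the lowest of them, and the step from S1D4 to S2D4 was 5.81 ± 0.642 (log2, SE; adjusted p = 1.32e-06, edgeR). In GIMEN the same gene fell from 50.9, 59.1 and 60.3 CPM to 3.84, 5.15 and 5.29, a level below that of every S2D30 library of SK-N-AS.

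CYR61, the close relative of CTGF, followed another course in SK-N-AS. It measured 43.3, 39.7, 14.2 and 10.4 CPM when untreated, 49.0, 37.7, 47.8 and 54.7 in S1D4, 115, 103, 118 and 96.9 in S2D4 and 63.9, 74.2, 73.1 and 69.8 in S2D30. The untreated libraries split into a higher and a lower pair, and S2D4 was the peak. The step from S1D4 to S2D4 was 1.41 ± 0.330 (adjusted p = 0.00178, edgeR). GIMEN fell from 212, 225 and 248 CPM to 35.9, 42.0 and 39.1, with no overlap.

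SPOCK1, a secreted proteoglycan, had the largest distance between the untreated lines. In SK-N-AS it was 0.366 to 0.464 CPM untreated, 4.29 to 4.48 in S1D4, 15.1 to 18.2 in S2D4 and 38.6 to 48.6 in S2D30, so that each group lay wholly above the one before it. Its step from S1D4 to S2D4 was 2.13 ± 0.112 (adjusted p = 4.43e-10, edgeR). GIMEN fell from 680, 662 and 659 CPM to 69.2, 41.2 and 38.3, so that the treated ranges of the lines overlapped. SERPINB7, a serpin, had at most 2 counts in any untreated SK-N-AS library and measured 7.96, 9.22, 9.66 and 6.94 CPM at day 30. Against the floor of 3 counts per library it was at least 70.4-fold higher. It stayed at 0.15 CPM or less in S1D4 and S2D4, while GIMEN fell from 322, 312 and 305 CPM to 29.6, 59.2 and 67.5.

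FAP, a cell-surface protease of activated fibroblasts, measured 12, 11.2, 8.67 and 8.31 CPM in untreated SK-N-AS and 39.9, 57.1, 59.2 and 35.1 in S2D30. In GIMEN it fell from 74.4, 75.3 and 71.9 to 9.31, 3.76 and 5.89 CPM. FAP is 1 of 9 genes of a fibroblast marker list, which summed to 1910 to 2240 CPM in untreated SK-N-AS and to 334 to 391 in S2D30. Most of that sum was collagen: COL3A1 went from 935 to 1182 CPM to 46.0 to 58.6, and COL1A1 from 588 to 619 CPM to 38.0 to 45.6. PDGFRA of the same list moved like FAP in SK-N-AS only, from 32.7 to 45.6 CPM to 85.9 to 103. In GIMEN PDGFRA rose, from 48.5 to 50.5 CPM to 60.7 to 82.5. In GIMEN the sum went from between 10800 and 11100 CPM to between 1390 and 2140, and none of the 9 genes was at 0 in either line. In bulk RNA, fewer cells of a type and less RNA per cell cannot be told apart. SRPX, a secreted sushi-repeat protein, was 98.2, 103 and 94.4 CPM in S2D4 replicates 1 to 3 but 15.1 in replicate 4, below the 20.0 to 23.6 of S1D4. Its step from S1D4 was 2.0 ± 0.363 (adjusted p = 0.000205, edgeR).

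CCBE1, an extracellular protein needed for lymphatic growth, went the other way in early stage 2 (named after its values were seen). It was 1.35 to 1.89 CPM in S1D4 and 0.322, 0.266, 0.324 and 1.02 in S2D4, with no overlap, a change of -1.47 ± 0.369 (adjusted p = 0.00291, edgeR). By day 30 it was 2.77 to 4.09 CPM, above all earlier libraries. For 13 of the 14 matrix and secreted genes untreated GIMEN lay above every SK-N-AS library of any group. TGM2, a transglutaminase that cross-links proteins, is an example, at 317 to 403 CPM in S2D30 against 1192 to 1242 in untreated GIMEN.

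The ligands and receptors numbered 12, of which 10 were higher in S2D4 than S1D4 and none lower. NTSR1 is the receptor for neurotensin, and both it and its ligand precursor NTS belonged to the 60. NTSR1 measured 0.485 to 1.07 CPM before treatment, 7.87, 7.40, 13.7 and 15.7 in S1D4, 208, 217, 228 and 91.2 in S2D4 and 40.2, 46.1, 43.0 and 46.7 in S2D30. The groups did not overlap, and S2D4 was the peak even in its lowest library, replicate 4. The step from S1D4 to S2D4 was 4.26 ± 0.282 (adjusted p = 4.63e-09, edgeR). In GIMEN NTSR1 fell from 2.64, 3.01 and 2.88 CPM to 0.579, 0.521 and 0.547. NTS was 0.104 to 0.313 CPM before treatment, 10.0, 11.2, 9.80 and 1.60 at S2D4 and 2.58, 1.30, 2.72 and 2.09 at S2D30. In GIMEN it fell from 37.2, 35.2 and 33.1 to 2.10, 2.37 and 2.43. Both thus had their highest SK-N-AS mean in S2D4, but over all 6 groups NTS was highest in untreated GIMEN and NTSR1 in S2D4.

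AXL was 19.2, 18.4, 10.2 and 9.90 CPM before treatment of SK-N-AS, 11.2 to 12 in S1D4, 104, 98.2, 105 and 42.3 in S2D4 and 122, 144, 135 and 112 in S2D30. Its step from S1D4 to S2D4 was 3.09 ± 0.270 (adjusted p = 1.02e-07, edgeR). GIMEN fell from 490, 506 and 513 CPM to 108, 117 and 108, so that the treated ranges of the lines overlapped. FAT1, an atypical cadherin, was highest in S2D4, at 324, 298, 367 and 426 CPM against 32.8 to 43.5 in S1D4, a step of 3.41 ± 0.193 (adjusted p = 8.56e-10, edgeR). Unlike most of the 60, FAT1 was lower in untreated GIMEN (6.82 to 7.57 CPM) than in untreated SK-N-AS (18.9 to 42.8). SEMA7A, a membrane-anchored semaphorin, rose already in stage 1, from 1.49 to 2.51 CPM untreated to 55.2 to 58.9, and reached 110, 126, 130 and 122 in S2D4 before 13.4, 16.4, 15.6 and 10.7 in S2D30. IL6, an inflammatory cytokine, had 0 counts in untreated SK-N-AS and 2.24 to 2.66 CPM at day 30, which was at least 19.7-fold higher than the floor of 3 counts. In GIMEN it went from 1.82, 2.19 and 2.88 CPM to 0.789, 0.752 and 0.365.

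**Figure D3:**
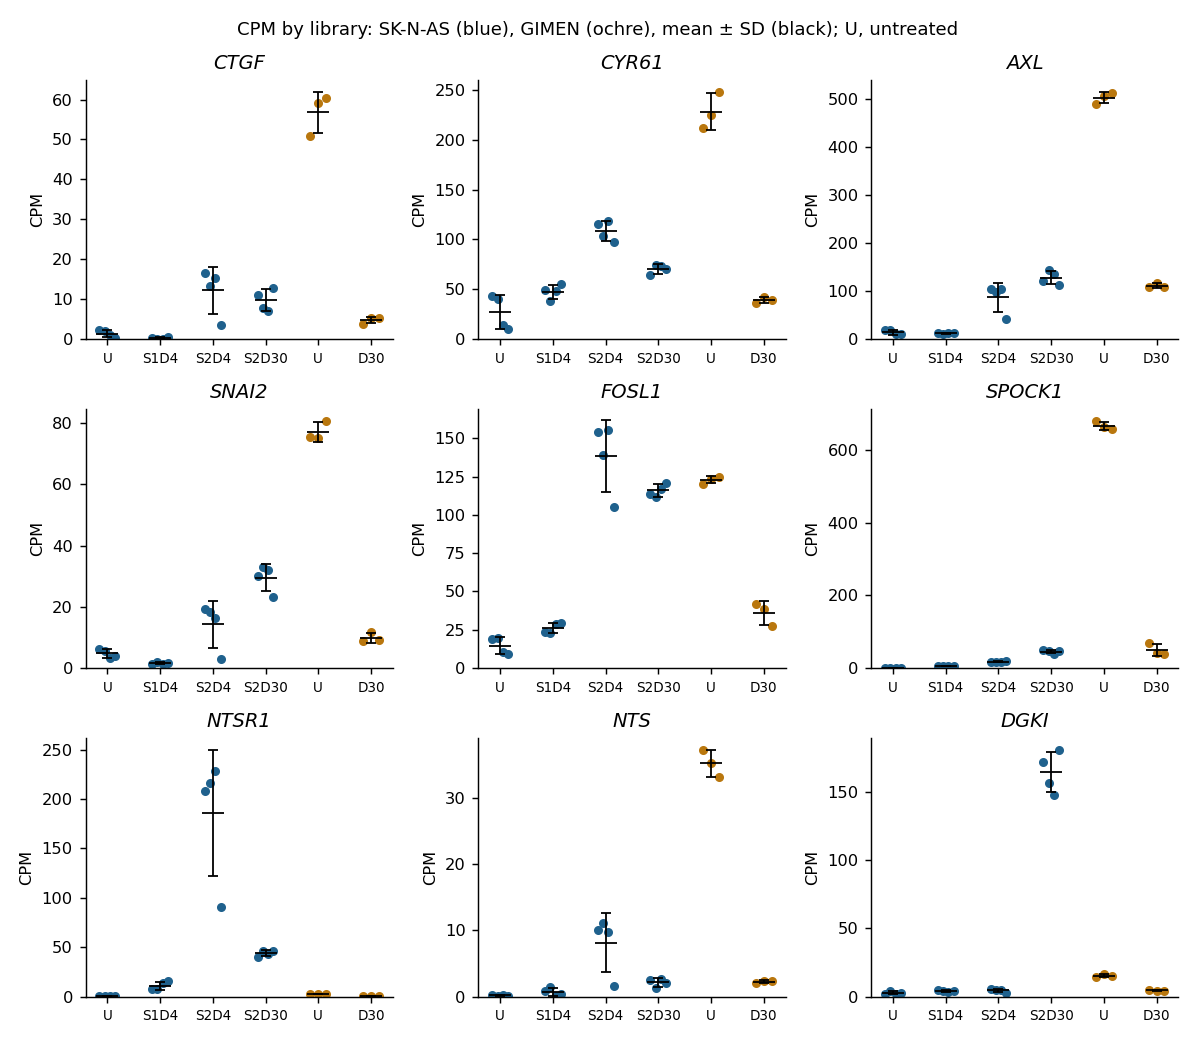
CPM of 9 of the genes in each library, with group mean and SD (n = 4 for SK-N-AS groups, n = 3 for GIMEN groups). NTSR1, NTS and CYR61 peak in S2D4 and DGKI rises in S2D30, while in GIMEN each of the 9 is lower in all D30 libraries than in all untreated ones.

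The transcription factors numbered 8, and 7 were higher in S2D4 than S1D4. SNAI2 dipped and then rose: it was 6.29, 5.57, 3.13 and 3.95 CPM untreated, 1.39, 1.84, 1.33 and 1.60 in S1D4, 19.1, 18.4, 16.3 and 2.94 in S2D4 and 29.9, 33.1, 31.9 and 23.1 in S2D30. Stage 1 lay below all other groups, and S2D4 replicate 4 lay far below its group though above S1D4. The step from S1D4 to S2D4 was 3.39 ± 0.435 (adjusted p = 6.68e-06, edgeR). GIMEN fell from 75.5, 75.1 and 80.8 CPM to 8.79, 11.6 and 9.12. FOSL1 rose from 22.7 to 29.1 CPM in S1D4 to 154, 139, 155 and 105 in S2D4, a step of 2.62 ± 0.216 (adjusted p = 5.46e-08, edgeR), and was 112 to 121 in S2D30. In GIMEN it fell from 120, 124 and 125 to 41.8, 38.5 and 27.2 CPM. VDR, the vitamin D receptor, climbed from 0.0693 to 0.679 CPM untreated to 24.0 to 27.0 in S2D30 and in GIMEN fell from 3.79 to 4.37 CPM to 0.231 to 0.737.

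The intracellular signalling genes numbered 9, with 7 higher in S2D4 than S1D4. DGKI, a diacylglycerol kinase, had the largest SK-N-AS ratio of all 60 genes (41.5) and was late. It was 2.14 to 4.46 CPM untreated, 3.34 to 4.92 in S1D4, 5.88, 5.32, 4.95 and 2.94 in S2D4 and 172, 156, 148 and 180 in S2D30. The step from S1D4 to S2D4 was 0.40 ± 0.213 (adjusted p = 0.124, edgeR) and did not pass the threshold, though it did without S2D4 replicate 4 (0.57, adjusted p = 0.0180). DCLK1, a microtubule-associated kinase of neurons, had the deepest GIMEN fall, from 35.1, 30.6 and 33.9 CPM to 1.26, 0.868 and 1.22, and in SK-N-AS went from 9.52 to 12.5 CPM untreated to 46.2 to 49.4 in S2D30. SH2D5, an SH2-domain adaptor, was 1.86 to 2.96 CPM in S1D4 and 22.9, 23.8, 27.6 and 49.3 in S2D4, with replicate 4 here the highest, a step of 3.84 ± 0.269 (adjusted p = 9.19e-09, edgeR). MAP3K14 (NIK), the kinase of non-canonical NF-kB signalling, rose by a smaller amount, from 25.9 to 29.2 CPM in S1D4 to 36.1 to 46.6 in S2D4.

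All 9 cytoskeleton and membrane genes were higher in S2D4 than S1D4. DYSF (dysferlin) and MYOF (myoferlin) are related proteins of membrane repair. DYSF was 4.73, 5.43, 5.22 and 0.292 CPM in S2D4, with replicate 4 below S1D4 (0.315 to 1.45), and reached 13.0, 25.3, 19.1 and 13.3 in S2D30. MYOF changed by 0.74 ± 0.207 from S1D4 to S2D4 (adjusted p = 0.00614, edgeR), from 6.25 to 8.01 CPM to 8.14 to 12.4. The relatives differed in their order between lines: untreated GIMEN lay above every SK-N-AS library for MYOF (323 to 337 CPM) but below every S2D30 library for DYSF (4.12 to 4.52 CPM). MYO1D, a class I myosin, rose from 0.696 to 2.14 CPM untreated to 44.4 to 49.8 in S2D30, and in GIMEN fell from 23.2 to 25.5 CPM to 10.0 to 13.0. LIMS4 shares all its 75-base words with other genes (100%), so its counts cannot be assigned to it alone.

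The transport and metabolism genes numbered 5, with 3 higher in S2D4. SLC7A5 (LAT1), an importer of large neutral amino acids, was 83.4 to 93.7 CPM in S1D4, 192, 189, 218 and 247 in S2D4 and 151 to 183 in S2D30, a step of 1.48 ± 0.109 from S1D4 to S2D4 (adjusted p = 1.50e-08, edgeR). SLC7A11 (xCT), the cystine importer, rose mostly late. It was 6.70 to 8.44 CPM in S1D4, 8.69 to 14.5 in S2D4 and 82.0, 57.1, 57.3 and 89.2 in S2D30. Its step from S1D4 to S2D4 was 0.76 ± 0.235 (adjusted p = 0.0117, edgeR). In GIMEN SLC7A5 fell from 121 to 131 CPM to 46.2 to 57.3 and SLC7A11 from 27.1 to 30.7 CPM to 4.53 to 6.44. LACTB, a mitochondrial protein, was 13.3 to 17 CPM in S1D4 and 9.90 to 12.1 in S2D4, a change of -0.27 ± 0.115 that did not pass the threshold (adjusted p = 0.0583, edgeR). The last 3 of the 60 are a mitochondrial pseudogene, MTND2P28, and 2 genes with clone names, all higher in S2D4. Of the 75-base words of MTND2P28, 34.3% occur in other genes.

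**Figure D4:**
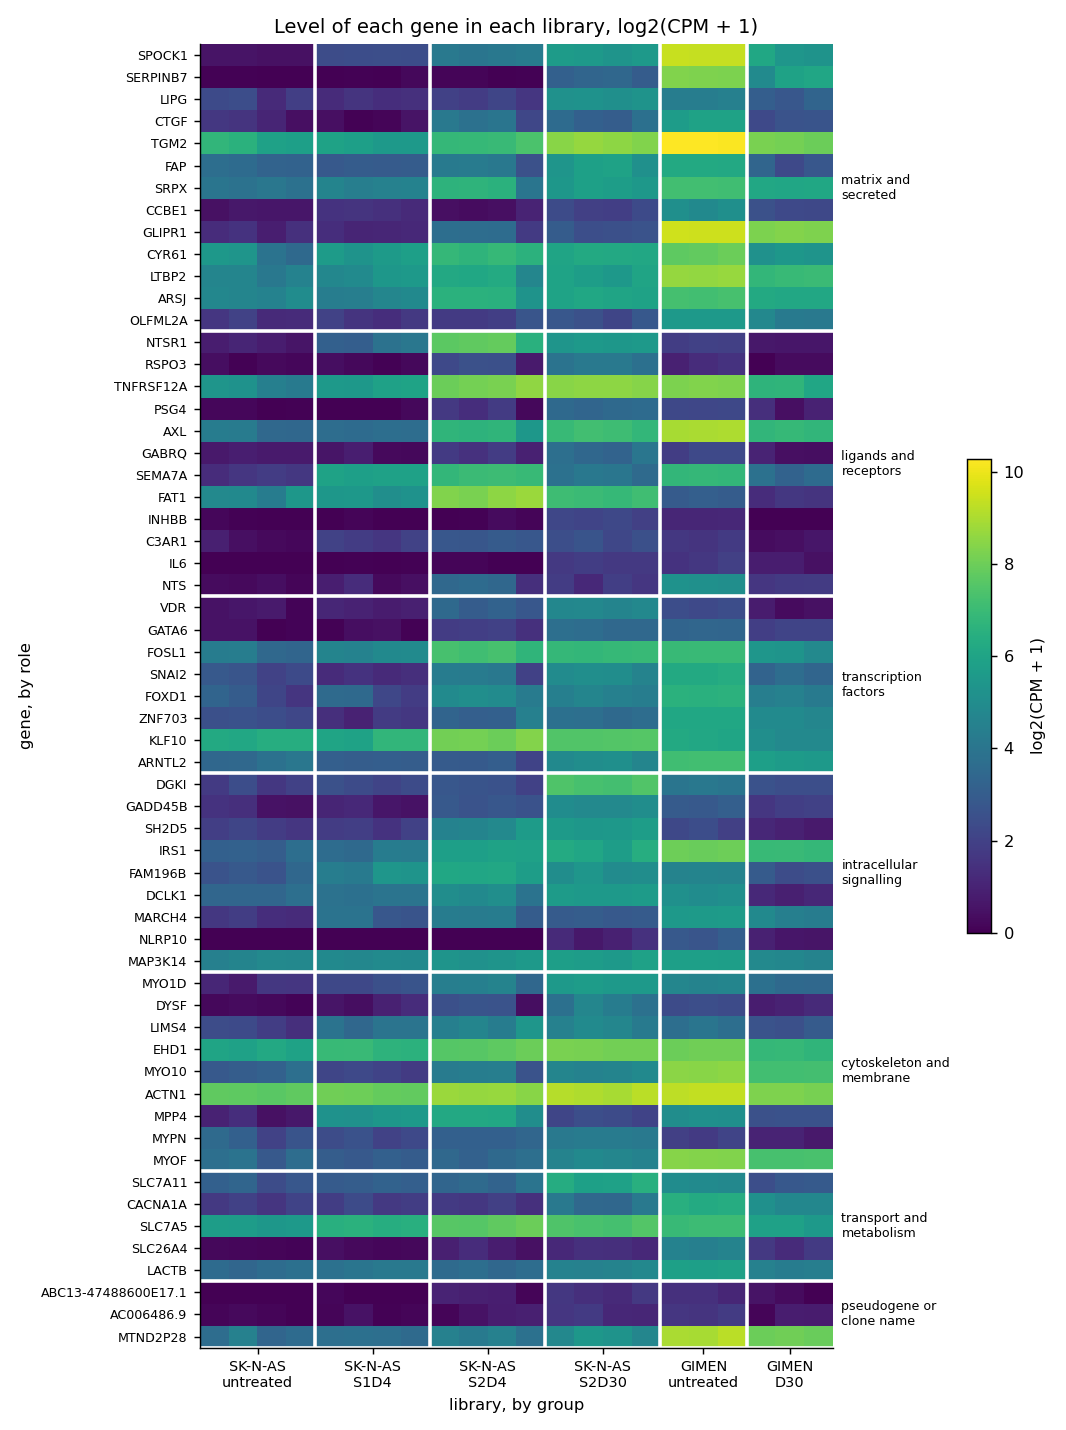
Level of 59 of the 60 genes, log2(CPM + 1), in each of the 22 libraries, by role and, within a role, by the size of the SK-N-AS ratio. Untreated GIMEN is brightest for nearly all matrix and secreted genes, and S2D4 replicate 4, the last column of its group, is darker than its neighbours for genes such as SRPX and NTS.

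The remaining comparisons in SK-N-AS share libraries with the rule and are given for the course only. In stage 1, 18 of the 60 were higher than untreated (17.6% of all genes tested were) and 9 were lower (22.4% were), shares of the 60 of 30% and 15%. Of the SK-N-AS risers tested, 44.2% were higher and 4.8% lower. The 9 were ARNTL2, CTGF, LIPG, MYO10, MYOF, MYPN, SNAI2, TGM2 and ZNF703, and all but ARNTL2 were then higher in S2D4 than S1D4. Leaving out untreated replicates 1 and 2, the higher pair for CTGF, SNAI2 and TGM2, left 2 of the 60 lower in stage 1. In S2D4, 49 were higher than untreated (81.7%, background 30.9%) and 1, ARNTL2, was lower (background 32.2%). The share higher was much the same among the SK-N-AS risers tested, at 82.2%. From S2D4 to S2D30, 32 rose (53.3%, background 24.4%) and 9 fell (15%, background 26.9%). Among the SK-N-AS risers tested, 67.5% rose and 6.17% fell. The 9 were FAM196B, FAT1, KLF10, MARCH4, MPP4, NTS, NTSR1, SEMA7A and SLC7A5. The highest SK-N-AS group mean was that of S2D30 for 41 genes, of S2D4 for 19 and of S1D4 for none.

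Untreated GIMEN started higher than untreated SK-N-AS for 57 of the 60 genes, in 56 with no overlap between libraries, against 24.7% of the 15232 expressed genes. Untreated levels entered the rule, so this is a description. The exceptions were FAT1, KLF10 and MYPN. For 29 genes untreated GIMEN was above every SK-N-AS library of any group (16.1% of expressed genes), among them CTGF, CYR61, AXL, SNAI2 and FAP. After 30 days SK-N-AS was the higher line for 40 of the 60, and for 8947 of the 15232 expressed genes. In 36 of the 60 this was with no overlap (45.6% of expressed genes). GIMEN was higher with no overlap in 16 of the 60, and in 4680 of the 15232. The order had turned, from GIMEN higher to SK-N-AS higher, for 37, against 1434 of the 15232 expressed genes. The rule moves the difference of each of the 60 towards SK-N-AS, so such counts follow in part from it. The median difference, SK-N-AS minus GIMEN on the log2(CPM + 1) scale, went from -2.95 to 0.95. Its median size without sign went from 2.95 to 1.64, against 0.69 to 0.64 for the expressed genes. The size was smaller after treatment in 41 of the 60, and in 8236 of the 15232 expressed genes. Scaling by the trimmed mean of M-values moved the median of all genes between untreated lines by -0.26, and gave 58 genes higher in untreated GIMEN and 39 higher in treated SK-N-AS.

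**Figure D5:**
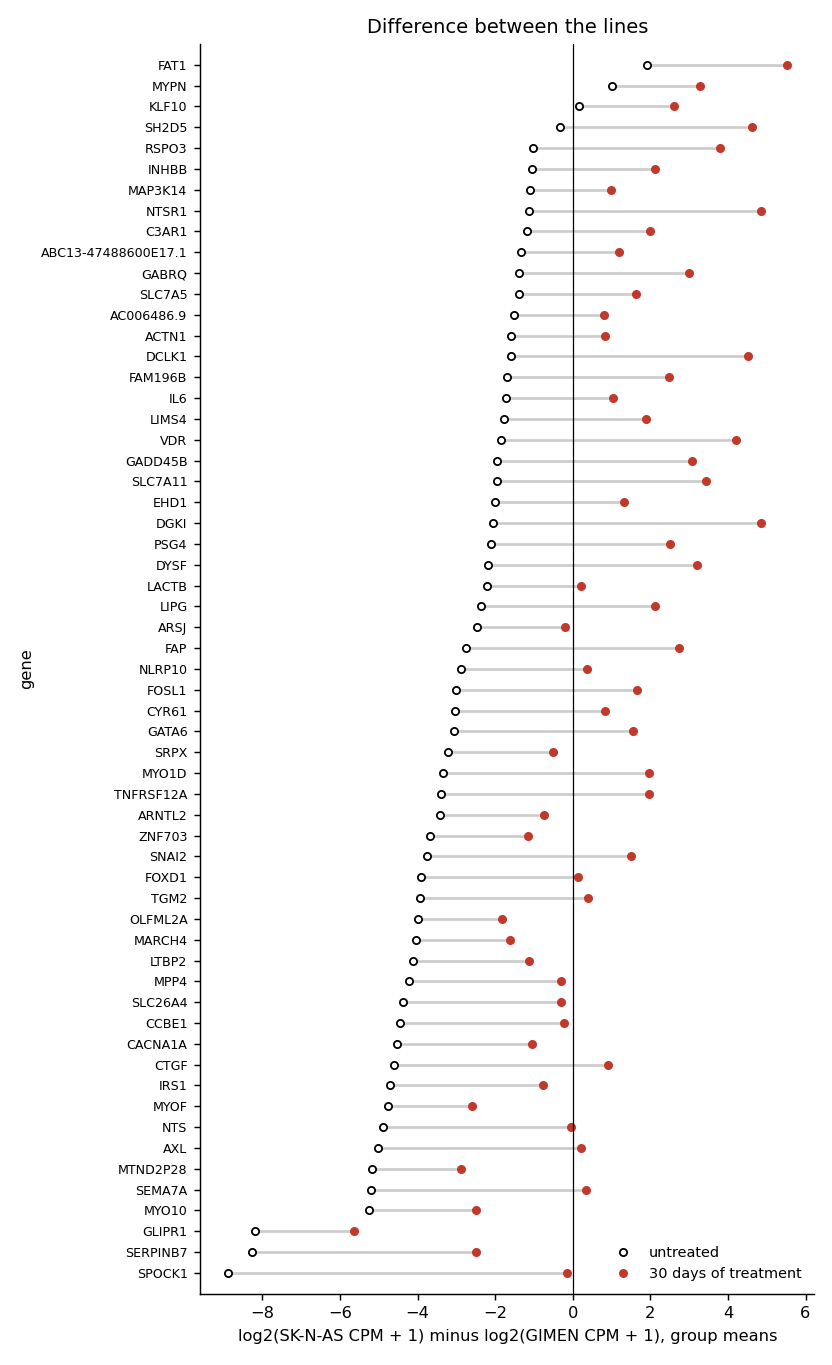
Difference between the lines, log2(SK-N-AS CPM + 1) minus log2(GIMEN CPM + 1) of group means, for 59 of the 60 genes, untreated (open) and after 30 days (red). All 59 move to the right, as the rule requires, 37 of them across 0. GLIPR1, MTND2P28, MYOF, MYO10 and SERPINB7 end furthest on the GIMEN side.

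Of 34 gene lists, 3 held more than 1 of the 60 genes. The list of YAP and TEAD genes held 4 of its 29 genes in the table (13.8%, against 0.17% of the whole table), AXL, CTGF, CYR61 and MYOF. From S1D4 to S2D4, 18 of its 27 tested genes were higher and 2 lower, where 28.3% and 26.8% of all genes tested were. The median log2 change of the list was 0.67, and the 18 include these 4. Against untreated SK-N-AS, 5 were higher and 10 lower in S1D4, where 17.6% and 22.4% of all genes tested were. In S2D30, 11 were higher and 7 lower, where 33.8% of all genes tested were higher and 36.5% lower. The rule used this last contrast, so the 4 are among the 11 by choice. The coactivator genes are themselves on the list and among the 18. From S1D4 to S2D4 YAP1 rose by 1.45 ± 0.101 (adjusted p = 9.17e-09, edgeR). WWTR1, which encodes TAZ, rose by 2.63 ± 0.172 (adjusted p = 3.95e-09, edgeR). In GIMEN, over the contrast that the rule used, 15 of the 27 were lower in D30 and 6 higher. The 4 are among these 15, again by choice. Of all genes tested in GIMEN, 36% were lower and 35.5% higher. While the 4 fell in GIMEN, YAP1 changed by 0.11 ± 0.0548 (adjusted p = 0.0871, edgeR). WWTR1 rose there by 0.52 ± 0.0705 (adjusted p = 4.04e-05, edgeR). The TEAD genes of the list were mixed. In GIMEN TEAD1 changed by -0.47 ± 0.0592, TEAD2 by -0.09 ± 0.258, TEAD3 by 0.61 ± 0.0769 and TEAD4 by -1.06 ± 0.109. From S1D4 to S2D4 TEAD1 changed by 0.58 ± 0.161 and TEAD2 by -1.29 ± 0.103, while TEAD3 and TEAD4 had no call. In S2D30 against untreated, TEAD1, TEAD2, TEAD3 and TEAD4 changed by -0.60, -2.29, 0.36 and -1.03. Not all genes of the list moved like the 4: ANKRD1 fell by 5.78 ± 0.216 (log2, adjusted p = 1.02e-09, edgeR) in GIMEN and had a change of -0.10 ± 0.749 in SK-N-AS at day 30, and NT5E rose in both lines.

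The mesenchymal list held FOSL1 and SNAI2, 2 of 34 genes (5.88%). Of the 34, 20 met the SK-N-AS condition and 6 the GIMEN condition. From S1D4 to S2D4, 24 of its 32 tested genes were higher and 3 lower, where 28.3% and 26.8% of all genes tested were. In GIMEN D30 against untreated, 11 of its 30 tested genes were higher and 16 lower, where 35.5% and 36% of all were. The rule placed FOSL1 and SNAI2 among these 16. The list of the unfolded protein and integrated stress responses held SLC7A5 and SLC7A11, 2 of 35 genes (5.71%). From S1D4 to S2D4, 26 of the 35 were higher and 1 lower, beside the same shares of 28.3% and 26.8%. In GIMEN D30 against untreated, 18 of the 35 were higher and 15 lower, beside 35.5% and 36% of all genes tested. The rule placed SLC7A5 and SLC7A11 among the 15, and the list as a whole did not fall as these 2 genes did. No gene of the cell cycle list was among the 60: all 40 met the GIMEN condition and none the SK-N-AS condition. The adrenergic, neuronal, integrin, NF-kB feedback and interferon lists held none of the 60 either. As the 60 are 0.17% of the table, most lists of such size would hold none, so this says little about those lists.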

How the data were processed

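RNA sequencing covered 22 libraries, 16 of SK-N-AS and 6 of GIMEN. The authors deposited raw read counts by gene symbol, whole numbers without normalization; the aligner, counting tool, build, annotation and use of strand are not given in the sources used here. CPM is the count divided by the column total, times 1000000. Tests used edgeR 4.0.16 in R 4.3.3 (filterByExpr, minimum count 10 and total 15; trimmed mean of M-values; glmQLFTest) on the 16 SK-N-AS libraries (15810 genes) or the 6 GIMEN libraries (13517 genes), with adjusted p-values after Benjamini-Hochberg and a threshold of 0.05. All 60 genes passed the filter in both lines. Genes such as NLRP10, IL6, SERPINB7 and INHBB did so in SK-N-AS only through S2D30, where the rule chose them to be high. Standard errors are the log2 change divided by the square root of its F value in the edgeR fit, and so include the spread between libraries. A group with at most 3 counts per library was taken as at the floor. Fold bounds against that floor cover counting error only.

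The 60 genes, the roles, the gene lists and the motifs were chosen with earlier results of these data known. Named genes follow a rule: largest SK-N-AS and GIMEN ratios, both together, largest called steps from S1D4 to S2D4, up to 4 genes of lists with at least 2 members, and neighbours of the thresholds (25 of the 60). All others were named after their values were seen. Of the 60, 1 is counted but not reported here by name. Promoters and names came from RefSeq (GRCh38.p14); 53 genes matched by symbol, 5 by synonym and 2 not at all. Exon overlap came from GENCODE. Alternatives were DESeq2 1.42.0 and its size factors, upper-quartile factors, other filters, other pseudocounts and folds, a replicate block, the compared groups alone and leaving out each library. Leaving out pairs of untreated SK-N-AS libraries was chosen after seeing the data.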

Additional observations from a re-analysis of the deposited data

Results flagged for a closer look

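A library far from the others of its group was looked for in each SK-N-AS group of the named genes, in 99 groups, and 9 were found; chance gives about 1 in 20 groups. In 6 of the 9 it was S2D4 replicate 4, the lowest each time. AXL measured 42.3 CPM there against 98.2 to 105 in the other S2D4 libraries, DYSF 0.292 against 4.73 to 5.43, and FAP 4.93 against 16.2 to 18.3. NTS measured 1.60 against 9.80 to 11.2, NTSR1 91.2 against 208 to 228, and SRPX 15.1 against 94.4 to 103. The other 3 were small in size: AXL at 11.2 CPM in S1D4 replicate 2 against 11.9 to 12, DCLK1 at 12.5 in untreated replicate 4 against 9.52 to 9.65, and IL6 at 2.66 in S2D30 replicate 2 against 2.24 to 2.27. What sets S2D4 replicate 4 apart was not tested.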

How the results depend on the processing

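The number of genes found by the rule was 60, was 76 and 44 with 0.5 and 2 CPM added in place of 1, 72 and 73 with trimmed-mean and DESeq2 scaling, 54 to 65 without 1 library, 66 and 61 without untreated SK-N-AS replicates 1 and 2 or 3 and 4, and 15 with folds of at least 3. From S1D4 to S2D4, the number higher was 48 to 51 and the median change 1.63 to 1.87 without 1 library. The number lower was 1 to 2 without 1 library and 2 with upper-quartile factors or a replicate block, LACTB being the second; it was 2 without S1D4 replicate 1 or S2D4 replicate 4. Same-numbered libraries had correlated deviations of 0.003 to 0.079 between S1D4 and S2D4, and of 0.304, 0.275, 0.032 and 0.31 between untreated and S1D4, so not every pair passed 0.1 and no pairing was used. With the replicate block the number higher in S2D4 than S1D4 was 50, and in S1D4 against untreated 18 were higher and 9 lower, the same counts as without it. With a log2 change of at least 1 required, 5 genes were lower in S1D4 than untreated and 0 lower in S2D4 than untreated. With no such limit, the number lower in S1D4 than untreated was 9, and 2 without untreated replicates 1 and 2. The number lower in S2D4 than untreated was 1, and 2 without untreated replicates 3 and 4; the cause was not tested. SERPINB7, near the detection floor and without a call, had a change of 0.29 from S1D4 to S2D4 that turned to -0.12 and -0.09 without S1D4 replicates 1 and 3, and to -0.03 and -0.09 without S2D4 replicates 1 and 2, and was 1.61 without S1D4 replicate 4. Library size limits genes of a few counts, such as IL6, INHBB and NLRP10.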

Other observations

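The ligands and receptors held 3 further signalling genes that are not described above. RSPO3, a WNT-potentiating ligand, was 0.0464 to 0.293 CPM untreated and 12.9 to 16.7 in S2D30, and in GIMEN 0.910, 1.46 and 1.83 CPM untreated and 0, 0.231 and 0.243 in D30. INHBB, an activin subunit, was 2.85 to 3.73 CPM in S2D30 and 1.14 to 1.24 in untreated GIMEN, with 0 counts in each D30 library, at least 6.89-fold lower than untreated. TNFRSF12A, the TWEAK receptor, was 17.4 to 40.5 CPM untreated, 249, 283, 297 and 378 in S2D4 and 338 to 370 in S2D30, against 301, 324 and 310 in untreated GIMEN and 101, 104 and 66.9 in D30. These genes were picked after their values were seen.

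Of the 60 genes, GLIPR1 and IL6 have 24.2% and 20.7% of their exon bases overlapped by a gene on the other strand in GENCODE, so that reads of both cannot be told apart if counting ignored strand. The 14 genes of the leukocyte marker list summed to 187 to 245 CPM in untreated SK-N-AS and 107 to 151 in S2D30, and to 87.4 to 98.9 in untreated GIMEN and 172 to 372 in D30. Most of these sums came from 2 genes. PTPRC was 173 to 234 CPM in untreated SK-N-AS and at most 1.32 in S2D30 and in GIMEN, while CD68 went from 9.14 to 18.4 CPM to 96.3 to 143 in SK-N-AS and from 76.9 to 86.2 to 164 to 363 in GIMEN. CD3E, TYROBP, AIF1 and SPI1 were at 0.316 CPM or less in these groups.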
